A study of Mus musculus with 4 samples.

Results

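The SoxB and SoxC genes were examined in the frontonasal prominence (FNP), the facial swelling that forms the forehead, nose and snout, of mouse embryos at E10.5. The 7 members were the rows of the deposited gene table named Sox1, Sox2, Sox14, Sox21, Sox4, Sox11 and Sox12, out of 33708 rows on 19 autosomes. All 7 were found, and all 7 passed the minimum of 10 reads set for a gene in one genotype or the other. Sox3, the X-linked SoxB1 gene, was not analysed here because the table covers autosomes.

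Sox proteins are transcription factors that bind DNA through an HMG box, a domain they share with the sex-determining factor SRY. SoxB1 proteins (SOX1, SOX2) are activators that keep neural and placodal progenitors undifferentiated, and SoxB2 proteins (SOX14, SOX21) act mainly as repressors of similar targets. SoxC proteins (SOX4, SOX11, SOX12) are activators that take over as neurons mature, and they also support the survival of embryonic mesenchyme. In the head, Sox2 marks the neuroepithelium and the olfactory and lens placodes, whereas SoxC genes are transcribed in young neurons and in facial mesenchyme.

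RNA sequencing covered 4 FVB/NJ embryos, each at the 29-somite stage, with 2 in each genotype. The WT group was Smchd1+/+ (1 female and 1 male by their labels), and the MD43 group was homozygous for the missense allele of Smchd1 called MommeD43 (Smchd1MommeD43/MommeD43, both labelled male). MommeD43 came from a chemical mutagenesis screen, is present in every cell of the embryo, and changes SMCHD1, a chromatin protein involved in gene silencing. WT replicate 2 and MD43 replicate 2 carry the same mother number in the labels, and each remaining embryo has its own. A supplementary table of the study names WT replicate 2 as female, and under that record sex and genotype cannot be told apart. The comparison asks whether the mutant SMCHD1 alters transcript levels in this tissue.

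Levels are the authors' log2 RPKM (reads scaled for transcript length and library size, on a log2 scale), with 1 value per genotype that averages its 2 libraries. These values give no spread between embryos, no difference below carries a replicate check, and no p-value was computed. The error printed with a difference (counting SE) is a lower limit that comes from the number of reads alone, recovered from the table, and the 95% intervals rest on it. The implied depth was 16055882 reads per WT library and 22328791 per MD43 library. A read number is the geometric mean over the 2 libraries of a genotype. Transcripts of Smchd1 stood at 3.31 log2 RPKM in WT and 3.30 in MD43, a difference of -0.01 ± 0.02 (counting SE).

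Because the HMG box is so alike among Sox genes, its coding sequence was compared first, to see whether reads of one member could be counted for another. The lines below give the 48-base coding stretch that Sox4 and Sox11 share without a mismatch, aligned without gaps in all 7 members and written 5′ to 3′ on the coding strand. Capitals mark the 28 positions that are identical in all 7.
Sox1: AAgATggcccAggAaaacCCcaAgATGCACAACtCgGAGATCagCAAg
Sox2: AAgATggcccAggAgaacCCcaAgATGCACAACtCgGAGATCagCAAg
Sox14: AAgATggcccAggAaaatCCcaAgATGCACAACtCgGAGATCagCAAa
Sox21: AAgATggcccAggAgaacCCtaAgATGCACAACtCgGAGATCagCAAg
Sox4: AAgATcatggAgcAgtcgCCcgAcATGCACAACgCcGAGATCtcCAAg
Sox11: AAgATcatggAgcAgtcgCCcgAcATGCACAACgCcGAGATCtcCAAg
Sox12: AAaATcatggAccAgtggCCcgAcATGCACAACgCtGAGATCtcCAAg

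The stretch lies at chr3:34650593-34650640 (plus strand) in Sox2 and at chr12:27342166-27342213 (minus strand) in Sox11, in build GRCm38. The sequences fall into the B and C subgroups. Sox1 and Sox21 each matched Sox2 at 47 of 48 positions and Sox14 at 45, against 33 for Sox4 and Sox11 and 31 for Sox12. Over the most conserved window of 240 coding bases, the 6 pairs within SoxB were 85.4% to 89.6% identical, the 3 pairs within SoxC 83.8% to 89.2%, and the 12 pairs between them 66.3% to 73.3%. The longest run without a mismatch in any of the 21 pairs of transcripts was the 48 bases of Sox4 and Sox11, and the next were 38 bases for Sox1 with Sox2 and for Sox2 with Sox21. The study sequenced 75-base single-end reads, so 0 of the 21 pairs could share a full-length read without a mismatch.

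All 7 members are protein-coding genes with a single exon block in GENCODE M21. Their coding sequences span 723 bases (Sox14) to 1323 bases (Sox4), and most of the counted length is 3′ UTR in the SoxC genes, as in Sox11 with 6957 bases of 3′ UTR in 8311 bases of exon. The order of the levels was the same in both genotypes, from Sox2 through Sox11, Sox4, Sox12, Sox1 and Sox21 down to Sox14. The place of Sox4 holds for its reads as counted. In WT, Sox2 stood above 97.1% of the 15359 genes that passed the minimum. The 3 SoxC genes made up 54.8% of the summed RPKM of the family in WT and 54.4% in MD43, and the 2 SoxB1 genes 39.7% and 39.2%. The SoxB2 genes supplied 5.44% in WT and 6.35% in MD43.

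**Figure D1:**
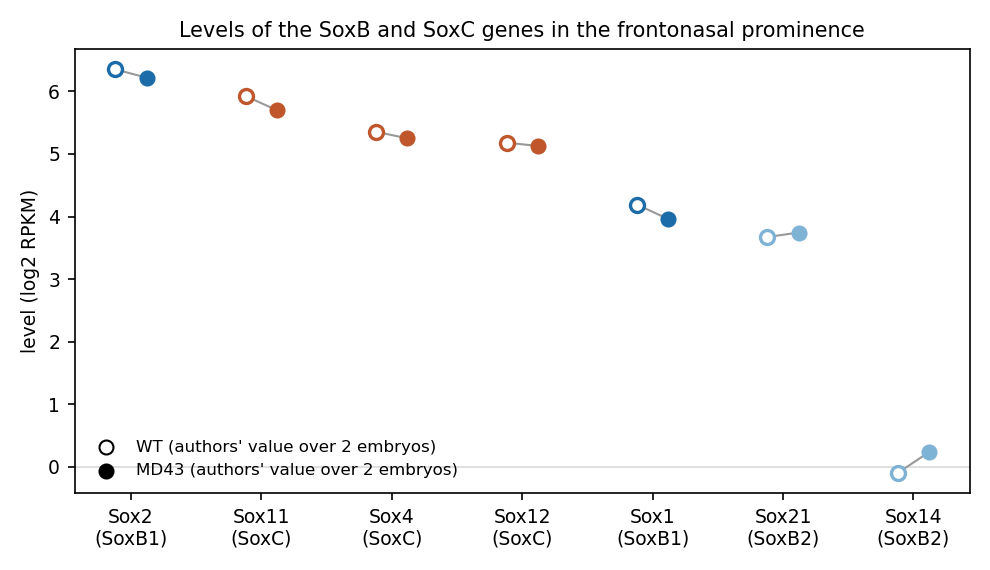
Level of each gene in log2 RPKM (vertical axis) in WT (open circles) and MD43 (filled circles), 1 value per genotype over 2 embryos, ordered by WT level and coloured by subgroup. Each MD43 circle lies close to its WT circle, and Sox14 lies far below the other members, at -0.10 in WT and 0.24 in MD43.

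Neighbours in this order were separated by more than their counting error in both genotypes, but the spread between embryos was not measured here. The smallest gap was that of Sox4 over Sox12, at 0.17 ± 0.03 log2 RPKM in WT and 0.12 ± 0.02 in MD43 (counting SE). The largest was that of Sox21 over Sox14, 13.6-fold in WT and 11.4-fold in MD43. Levels per length depend on the annotated transcript ends, which are the same for both genotypes.

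None of the 7 genes differed by 2-fold or by 1.5-fold between the genotypes (0 of 7 in either direction). Over all 15359 genes, a decrease of 2-fold or more in MD43 was seen in 2.47% and an increase of that size in 1.63%. For 1.5-fold, the shares were 6.43% lower and 4.23% higher, so that 0 of 7 is close to this background. The MD43 value was lower for 5 members and higher for 2, with a median of -0.10 and a range from -0.23 to 0.33 (log2), whereas the median of all genes was 0.01 with quartiles of -0.16 and 0.15. The differences of Sox2, Sox21, Sox4 and Sox12 lay between these quartiles (4 of 7). The summed RPKM of the family was 251 in WT and 230 in MD43, or 91.3% of the WT sum.

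The SoxB1 genes were both lower in MD43, by little. Sox2 (ENSMUSG00000074637, chromosome 3, 34650405 to 34652461, plus strand), which maintains neural and sensory progenitors, had 6.35 log2 RPKM in WT and 6.22 in MD43, from 2695 and 3422 reads. The difference was -0.13 ± 0.03 (counting SE; 95% interval -0.18 to -0.08), so that the MD43 level was 91.3% of the WT level. Sox1 (ENSMUSG00000096014, chromosome 8, 12395295 to 12400126, plus strand), whose transcription is confined more strictly to neuroectoderm, had 4.19 log2 RPKM in WT and 3.96 in MD43, from 1416 and 1679 reads. Its difference of -0.23 ± 0.04 (interval -0.30 to -0.16) put MD43 at 85.2% of WT. Sox1 was lower by 0.10 more than Sox2 on the log2 scale (Sox1 minus Sox2, -0.10 ± 0.05, counting interval -0.19 to -0.01).

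The SoxB2 genes had the opposite sign, on fewer reads. Sox21 (ENSMUSG00000061517, chromosome 14, 118233232 to 118237030, minus strand), a repressor that promotes exit from the progenitor state, had 3.67 log2 RPKM in WT and 3.74 in MD43, from 778 and 1137 reads. Its difference of 0.07 ± 0.05 had a counting interval from -0.02 to 0.17, which includes 0. Sox14 (ENSMUSG00000053747, chromosome 9, 99874106 to 99876170, minus strand), a marker of certain interneurons and diencephalic neurons, had -0.10 log2 RPKM in WT and 0.24 in MD43. This rested on 31.0 and 54.3 reads, since the product of the reads of the 2 libraries was 960 in WT and 2952 in MD43. The difference of 0.33 ± 0.23 had an interval from -0.12 to 0.78, which includes 0 and reaches past 1.5-fold, and it was 0.17 with a pseudocount of 1 RPKM. At this depth a difference in Sox14 was not detectable beyond counting error.

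The 3 SoxC genes were all lower in MD43 as counted, but the direction of Sox4 turns to 0.08 when the reads of a gene on its opposite strand are subtracted (described with the overlapping genes). Sox11 (ENSMUSG00000063632, chromosome 12, 27334264 to 27342574, minus strand), an activator of neuronal genes that is also needed in facial mesenchyme, was the member with most reads, 8101 for WT and 9636 for MD43. Its level was 5.92 log2 RPKM in WT and 5.70 in MD43, a difference of -0.23 ± 0.02 (interval -0.26 to -0.20), or 85.5% of WT. Sox4 (ENSMUSG00000076431, chromosome 13, 28948919 to 28953713, minus strand), its closest relative, had 5.35 and 5.25 log2 RPKM, from 3149 and 4073 reads, a difference of -0.10 ± 0.02 (interval -0.15 to -0.06). Sox12 (ENSMUSG00000051817, chromosome 2, 152393611 to 152398063, minus strand), the weakest activator of the 3, had 5.18 and 5.13 log2 RPKM, from 2592 and 3477 reads. Its difference of -0.05 ± 0.03 was the smallest of the SoxC genes, and its interval from -0.10 to -3.43e-05 ended at the edge of 0. Within SoxC, Sox11 was lower than Sox4 by a further 0.12 (Sox4 minus Sox11, 0.12 ± 0.03, counting interval 0.06 to 0.18).

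**Figure D2:**
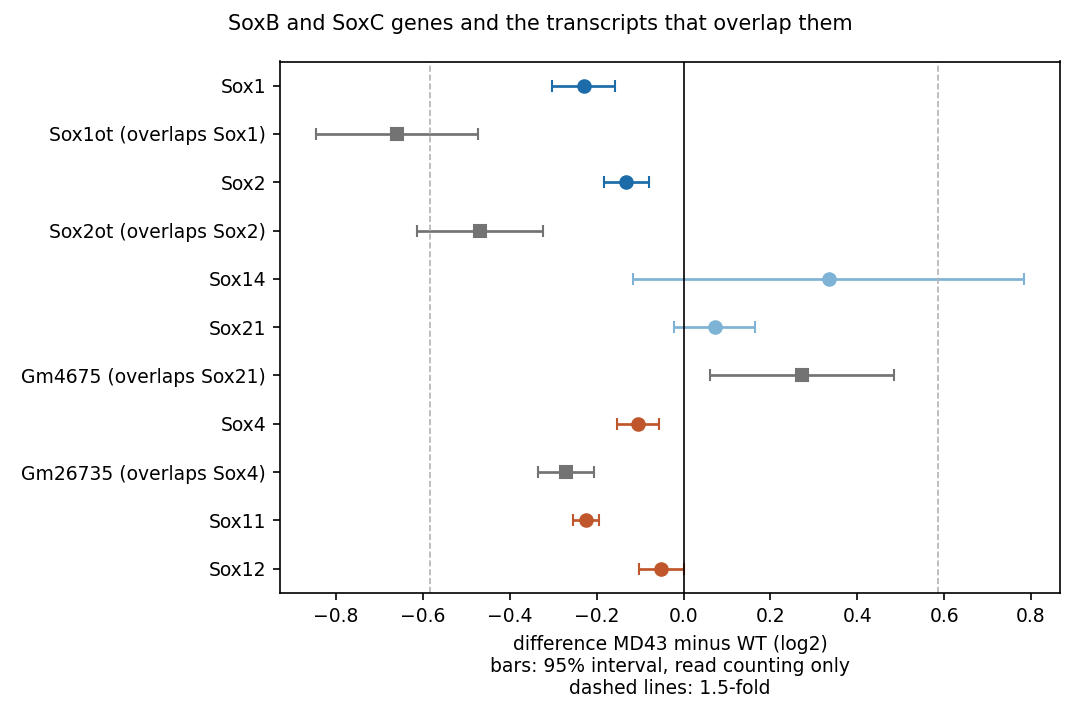
Difference MD43 minus WT in log2 RPKM (horizontal axis) for the 7 genes (circles, coloured by subgroup) and for the 4 transcripts that overlap them (grey squares), with 95% intervals from read counting only. The intervals of Sox1, Sox2, Sox4 and Sox11 lie below 0, those of Sox14 and Sox21 include 0, and Sox1ot lies past the dashed line that marks 1.5-fold.

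Read depth sets how these values compare with those of other genes. A minimum of 500 reads in each genotype, chosen after the values were seen, was met by 6555 genes and 6 of the members. The differences of these genes had quartiles of -0.07 and 0.13, and 42.5% of the genes were lower in MD43. Sox1, Sox2, Sox4 and Sox11 lay below the lower quartile, and Sox12 and Sox21 lay between the quartiles. How far the embryos of a genotype differ in the SoxB and SoxC genes was not measured here, so these differences were not set against biological variation.

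**Figure D3:**
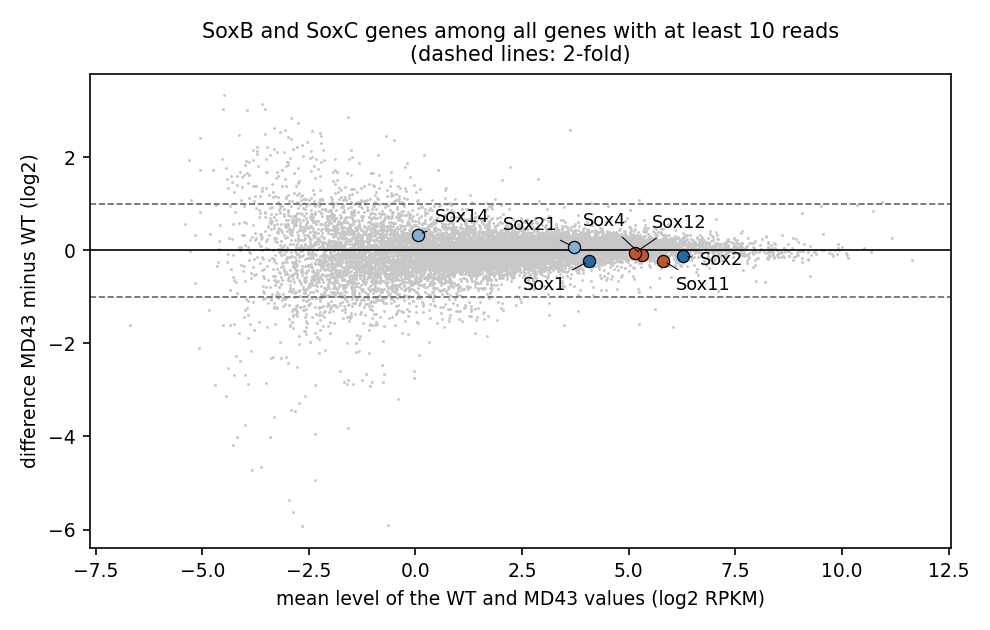
Difference MD43 minus WT (log2, vertical axis) against the mean level of both genotypes (log2 RPKM, horizontal axis) for the 15359 genes past the read minimum (grey) and the 7 SoxB and SoxC genes (coloured). All 7 lie inside the dashed lines at 2-fold, from -0.23 to 0.33.

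Of the 7 members, 4 are overlapped by another transcribed gene. As counted, the partner had the larger difference in all 4 pairs, in the same direction as the Sox gene. For Gm4675 and Sox21 the counting interval of that excess, -0.03 to 0.43, includes 0. Gm26735 shares exon bases with Sox4, as Gm4675 does with Sox21, so reads may have been counted for both genes of these pairs. With the reads of Gm26735 subtracted, Sox4 would have the opposite direction to Gm26735. Sox2 lies inside an intron of Sox2ot and Sox1 inside an intron of Sox1ot, long non-coding RNAs on the same strand, with 0 bases of shared exon in both pairs. Sox1ot (ENSMUSG00000047935, chromosome 8, 12385771 to 12436768) had 1.04 log2 RPKM in WT and 0.38 in MD43, a difference of -0.66 ± 0.10 (counting SE) on 246 and 216 reads. Sox2ot (ENSMUSG00000105265, chromosome 3, 34104270 to 34682619) had 1.02 and 0.55 log2 RPKM, a difference of -0.47 ± 0.07 on 378 and 380 reads. The host transcripts were thus lower than the genes inside them, by -0.43 ± 0.10 for Sox1ot minus Sox1 (counting interval -0.63 to -0.23) and by -0.34 ± 0.08 for Sox2ot minus Sox2 (interval -0.49 to -0.18). Both hosts stood far below the Sox genes in level, at -3.15 log2 for Sox1ot minus Sox1 and -5.33 for Sox2ot minus Sox2 in WT.

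On the opposite strand, Gm26735 (chromosome 13, 28943048 to 28951671) overlaps Sox4 and Gm4675 (chromosome 14, 118236232 to 118261199) overlaps Sox21, both lincRNAs. Of the 2649 exon bases of Gm26735, 2616 lie within Sox4, and its level nearly equalled that of Sox4, at 5.37 log2 RPKM in WT and 5.10 in MD43. The libraries were stranded, but whether strand was used in counting is not stated, so reads of Sox4 and Gm26735 cannot be told apart. If each Gm26735 read had been counted for Sox4 as well, subtracting them would leave 1390 reads in WT and 2045 in MD43, and the difference of Sox4 would be 0.08 instead of -0.10. Spread over the full exon length of Sox4, the reads left would give 18.1 RPKM in WT and 19.1 in MD43. The WT level is below the 18.3 of Sox1, and the MD43 level is above the 15.6 of Sox1. This leaves Sox4 almost no reads in the overlap, 54.6% of its exon length, so both levels are lower limits. If strand was not used, the direction of Sox4 depends on which gene the reads in the overlap came from. Its place in the order depends also on the exon length used, since the reads left lie almost all outside the overlap. Their level over that shorter length would be higher and was not computed. Had all the reads in the overlap come from Sox4, its difference would stay at -0.10. Which of these holds was not tested. Gm4675 was higher in MD43 (0.27 ± 0.11, counting SE) and shares 713 exon bases with Sox21, whose difference would be 0.02 after the same subtraction.

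Apart from Zcchc3, the other neighbours carried few reads. Gm45560, 3656 bases upstream of Sox1 and on its strand, had a read product of 40 in WT and no read in either MD43 library, and was at least 2.93-fold lower when MD43 was set to 3 reads. Gm42693, 11198 bases beyond Sox2 on the other strand, had 9.95 WT reads and 4.24 MD43 reads, a difference of -1.71 ± 0.59 (counting SE). Gm42692, 4309 bases before Sox2, had 2.45 and 5.66 reads. Gm45560 lies within the span of Sox1ot, and Gm42692 and Gm42693 lie within that of Sox2ot. Whether their reads came from these host transcripts was not tested. On either side of Sox12, Nrsn2 had 9.90 WT reads and 5.66 MD43 reads, and Zcchc3 had 1546 and 2362. Zcchc3 differed by 0.14 ± 0.03. Sox11 lies alone, with Gm9866 173631 bases to one side and Gm4166 255627 bases to the other, each with at most 11.8 reads.

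The promoters were searched for sequence features that played no part in the choice of the genes. All 7 have a RefSeq window (GRCm38.p6, 250 bases before to 50 bases after the start of the gene in RefSeq). The windows of Sox2 and Sox11 end before the start of the gene in the annotation that was counted. The CCAAT box, a binding sequence of the factor NF-Y, was searched as CCAAT on both strands and occurred in 6 of the 7 windows, all but that of Sox21, against 37.4% of 32851 windows of the same length. The octamer ATGCAAAT, the recognition sequence of POU factors that pair with SOX2, occurred in the windows of Sox1 and Sox12 (2 of 7, against 1.74% of all windows). The SOX-type letters ACAAAG occurred in that of Sox2 alone (1 of 7, against 18.7%). In the 7 windows, 0 matches overlapped a match to another of the 3 motifs. GC content ran from 52.0% in Sox4 to 76.7% in Sox12, with a median of 52.7% over all windows. The shares over all windows were not matched for GC content, so they are not a like comparison. A match to these letters is not evidence of binding.

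The windows of Sox2, the member of highest level, and Sox4, which held 4 CCAAT matches, are shown on the strand of the gene with the CCAAT matches in capitals. That of Sox2 (chr3:34649745-34650044, plus strand) ends before the start of the gene in the annotation that was counted, and that of Sox4 is chr13:28953650-28953949 (minus strand).
Sox2: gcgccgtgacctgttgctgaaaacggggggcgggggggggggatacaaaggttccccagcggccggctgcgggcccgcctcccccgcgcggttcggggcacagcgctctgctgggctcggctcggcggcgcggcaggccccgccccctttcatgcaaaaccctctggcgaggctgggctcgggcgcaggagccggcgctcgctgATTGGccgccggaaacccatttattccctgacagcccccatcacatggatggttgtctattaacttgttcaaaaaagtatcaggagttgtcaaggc
Sox4: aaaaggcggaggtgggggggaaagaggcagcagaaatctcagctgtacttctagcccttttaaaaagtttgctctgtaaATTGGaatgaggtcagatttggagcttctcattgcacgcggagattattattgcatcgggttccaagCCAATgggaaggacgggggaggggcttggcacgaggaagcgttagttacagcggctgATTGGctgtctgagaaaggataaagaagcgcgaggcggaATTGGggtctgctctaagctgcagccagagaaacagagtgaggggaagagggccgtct

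Genes that act with the Sox factors, and markers of the tissues the dissected piece could hold, were then set beside them. All lists were chosen with earlier results of these data known, so their counts are no independent evidence. Among all genes, 2.47% were at least 2-fold lower in MD43 and 1.63% higher. At 1.5-fold the shares were 6.43% lower and 4.23% higher. Facial mesenchyme markers, the identity of the labelled tissue, were present in both genotypes, with a summed level of 164 RPKM in WT and 165 in MD43 over 11 of 11 genes. Msx1, a homeobox gene of facial mesenchyme and the highest of them in WT, differed by -0.17 ± 0.03 (counting SE). The median difference of the list was 0.01, with 5 lower and 6 higher. In a bulk sample, fewer cells of a type and less RNA per cell cannot be told apart.

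Partners and companions of SoxB1 in neural progenitors were mostly lower. Of 12 genes, 9 were lower and 3 higher, with a median of -0.29, and their summed level was 554 RPKM in WT and 449 in MD43. Pou3f2, a POU factor that binds DNA beside SOX2, was the one member at least 2-fold lower, at 2.65 log2 RPKM in WT and 1.15 in MD43 (-1.50 ± 0.07, counting SE). The intermediate filament genes, which are the list's highest, stood at 7.90 and 7.48 log2 RPKM for Vim (-0.42 ± 0.01) and at 6.24 and 6.27 for Nes (0.03 ± 0.02). Vim weighs most in the summed level, so the fall of that sum does not describe the list as a whole. Within the list, then, the differences ran from that of Pou3f2 up to 0.16, and Nes, a direct SOX2 target, was nearly level.

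Young neuron genes, including the SoxC targets Tubb3 and Tead2, gave a median of -0.08 over 10 genes, with 6 lower and 4 higher. Tead2, a transcription factor gene, had 6.40 log2 RPKM in WT and 6.50 in MD43 (0.11 ± 0.02, counting SE), and Tubb3, the neuronal tubulin, had 6.28 and 6.30 (0.02 ± 0.03). The value of Tubb3 lay within its counting error. In all, 2 of the 10 were at least 1.5-fold lower, Gap43 (-0.74 ± 0.08) and Ina (-0.64 ± 0.10), and 0 higher. The summed level was 233 RPKM in WT and 232 in MD43. Tead2 and Tubb3, the highest of the list, weigh most in that sum, so it says little about the lower genes.

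Lists of neighbouring tissues differed in direction. Placode genes were higher in 8 of 8, with a median of 0.30 and a summed level of 57.1 RPKM in WT and 70.9 in MD43. The placode genes of highest level were Eya2 (0.36 ± 0.05, counting SE) and Sp8 (0.34 ± 0.05). Surface ectoderm genes were also higher in 8 of 8, with a median of 0.65 and a summed level of 120 and 188 RPKM, and 6 of 8 were at least 1.5-fold higher, among them Cldn6 (0.87 ± 0.05), while Krt18, with Cldn6 one of the 2 of highest level, was at 0.49 ± 0.04. The 8 telencephalon genes had a median of 0.11 and a summed level of 118 and 139 RPKM, with Lhx2 at 0.49 ± 0.02 and Emx2 at 0.30 ± 0.04, but Neurog2 (-1.06 ± 0.10) and Tbr1 (-1.60 ± 0.17) were at least 2-fold lower.

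All 12 diencephalon and optic vesicle genes were lower, with a median of -1.42 and a summed level of 48.7 RPKM in WT and 29.6 in MD43. The genes of highest level, Nkx2-1 (-0.45 ± 0.06, counting SE) and Six3 (-0.28 ± 0.05), differed less than the 7 that were past 2-fold. These were Barhl2 (-5.91 ± 0.50), Nkx2-2 (-2.83 ± 0.32), Rax (-2.17 ± 0.24), Otp (-1.57 ± 0.31), Sim1 (-1.48 ± 0.33), Foxd1 (-1.44 ± 0.09) and Dbx1 (-1.40 ± 0.15). The list was written with decreases in such genes already known, so its count is no independent evidence of direction. The part of tissue content in the Sox differences was not tested.

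Red blood cell genes were higher in 5 of 5 found, with a median of 0.84 and a summed level of 3056 RPKM in WT and 5810 in MD43, and Hbb-bh1 (1.04 ± 0.01, counting SE) was past 2-fold, with Hbb-y at 0.84 ± 0.01. The 3 globin genes of that list took 0.203% of the reads in WT and 0.383% in MD43. Endothelial genes had a median of -0.06 over 6 genes and a summed level of 14.1 and 13.4 RPKM, with Cldn5 at -0.11 ± 0.12 and Cdh5 at -0.01 ± 0.10. No marker found from the tissue lists lacked reads in both libraries of a genotype.

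**Figure D4:**
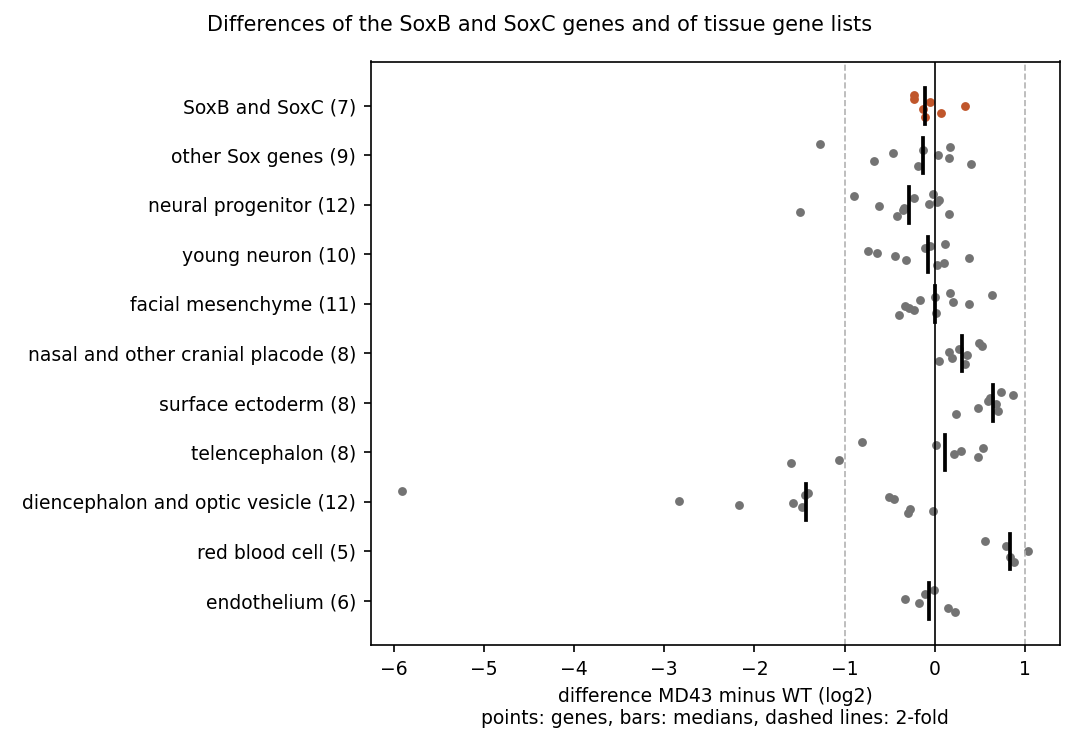
Difference MD43 minus WT (log2, horizontal axis) for each gene past the read minimum, by list, with the number of genes in brackets and the median as a black bar. The 7 SoxB and SoxC genes (orange) cluster near 0 with a median of -0.10, while the diencephalon and optic vesicle genes reach -5.91.

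The other autosomal Sox genes spread more widely, from -1.27 to 0.40. Of 11 listed, 9 passed the read minimum, 5 lower and 4 higher with a median of -0.13, and their summed level was 54.7 RPKM in WT and 52.8 in MD43, against 251 and 230 for the 7 SoxB and SoxC genes. Sox9, the chondrogenic and crest factor and the highest of them, had 4.49 and 4.31 log2 RPKM (-0.18 ± 0.04, counting SE), and Sox13 had 3.67 and 3.84 (0.18 ± 0.04). Sox10, a marker of migrating crest, was the one past 2-fold (-1.27 ± 0.51), on 10.8 reads in WT and 6.24 in MD43.

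With 1 value in each of 2 genotypes, likeness to another gene can be given only as closeness of level. Among the 91 other genes of the lists, the pair of log2 RPKM values of Sox2 lay nearest to those of Tubb3 (distance 0.11) and Nes (0.12), and that of Sox4 to Msx1 (0.16) and Msi1 (0.20). That of Sox11 lay nearest to Hes5 (0.32), a Notch target gene of progenitors, and Msi1 (0.59).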

How the data were processed

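RNA from the FNPs of 2 WT and 2 MD43 embryos was sequenced from 100 ng per library as stranded poly(A) libraries, per the labels. The authors trimmed the reads (Trim Galore 0.4.4), mapped them with HISAT2 2.0.5 to GRCm38.p6 and quantified them in SeqMonk. The values the authors deposited are log2 RPKM, which corrects for depth and gene length, with a single column for each genotype. The table also lists the authors' FDR (q-value) for 56 rows, their log2 fold change and their mean level. These hold the authors' own comparison and were not used. A supplementary table with values per embryo covers the genes with a listed FDR, holds 0 of the 7 members and was not used.

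Differences are MD43 minus WT. The table was matched to GENCODE M21 by symbol and position (33101 of 33708 rows). After adding log2 of exon length, 97.9% of the rows that share the commonest difference had the same constant, taken as genes with 0.9 reads per library. This returned the product of the reads of the 2 libraries, and 99.9% of products under 1000 were whole, 0.9 times whole or 0.81 in both genotypes (tolerance 0.02, rising in proportion for products over 100). The recovery was tested on simulated data. The counting SE uses the root of this product, covers counting error alone and is a lower limit. The 15359 genes that reached 10 reads in one genotype or the other served as background, and folds against 3 or fewer reads are bounds. With a single value per genotype, no test was run, and a fold of 2 or 1.5 stands in for a call.

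The members and lists were chosen with earlier results of these data known. Named genes were the 7 members, Smchd1, overlapping and nearest rows, and the genes of nearest level to Sox2, Sox4 and Sox11. In each list the 2 highest members and all past 2-fold were also named, with Gap43 and Ina as young neuron genes past 1.5-fold. One of these is not reported here. Of the nearest rows, those not named had at most 3 reads. Alternatives were pseudocounts of 0.1 and 1 RPKM, centring, a GC content and length correction, and other filters. Python 3.11.15, pandas 2.3.3 and numpy 2.4.6 were used.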

Additional observations from a re-analysis of the deposited data

How the results depend on the processing

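Of 30 alternatives run on the 7 SoxB and SoxC genes, 28 moved the difference by less than its counting interval. Under the GC content and length correction Sox11 was -0.18 in place of -0.23, outside that interval, and the cause was not tested. With the reads of the overlapping Gm26735 subtracted, an alternative added after the data were seen, Sox4 was 0.081 in place of -0.10, by the construction of that alternative. Sox21 kept its sign under the matching subtraction of Gm4675. Of 30 alternatives for the list medians, 29 stayed within the typical counting interval of a member, and the diencephalon and optic vesicle median was -0.96 with at least 50 reads, a filter that removes its low members.

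The share of all genes past a fold depends on the filter. With a minimum of 50 reads, 119 genes were past 2-fold lower and 38 higher, in place of 380 and 251, and 399 were past 1.5-fold lower and 189 higher, in place of 988 and 650. With a pseudocount of 1 RPKM these counts were 31, 8, 170 and 70, since it shrinks the changes of low genes. Centring moved none of the 4 counts by more than 1.5 times.

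No paired analysis was possible because the 2 libraries of each genotype are merged in the table. Fits without single replicates were not run for the same reason, so whether 1 embryo decides a value was not tested. Depth limits Sox14 most.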
